A study of Mus musculus with 16 samples.

Results

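The claudins and occludin are the membrane proteins of the tight junction, the belt that joins neighbouring epithelial cells near their luminal side. 10 genes of this kind were described, namely *Cldn1*, *Cldn2*, *Cldn3*, *Cldn4*, *Cldn7*, *Cldn8*, *Cldn12*, *Cldn15*, *Cldn23* and *Ocln*. They were chosen by gene symbol and make up 10 of the 22396 symbols measured. All 10 were listed. In 16 mice, RNA of EpCAM+ cells, sorted from a digest of the distal colonic mucosa, was sequenced with 1 library per mouse.

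Control mice carried floxed *Tnfr2* alleles without Cre (Tnfr2-f/f), and knockout-labelled mice carried them with Cre (Vil1::Cre;Tnfr2-f/f). *Tnfr2* is the name used for *Tnfrsf1b*, which encodes TNF receptor 2, and the villin promoter drives Cre in the intestinal epithelium, so other cells of the sort keep the gene. The groups were 4 controls and 5 knockout-labelled mice given water, and 3 controls and 4 knockout-labelled mice given dextran sulfate sodium (DSS), an agent that injures the colonic epithelium, at 3% in the drinking water for 6 days by the sample labels. By the labels all mice were dissected at day 12. The study's text instead describes the mice without DSS as an uninjured group from the start of the experiment and gives a somewhat higher DSS concentration, which the labels do not settle. It also states that cells of DSS-treated mice came from injured regions of the distal colon, so the region sampled cannot be told apart from treatment. Their age is not in the labels. The water-treated mice came from cage a, with 4 males, and cage b, with 5 females. The DSS-treated mice were all female and came from cage c, with control 3 and knockout-labelled mouse 1, and cage d, with the other 5. Treatment and cage therefore cannot be told apart, and in the water-treated mice neither can cage and sex.

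Values are TPM, a measure of abundance per transcript length relative to all transcripts of a library, summed over the listed transcripts of a gene. TPM keeps no read count, so the depth behind each value is unknown. The DSS and the water libraries were deposited in separate tables that had been scaled apart. TPM as deposited was used within a treatment, where genotypes were tested. For levels across treatments, all 16 mice were rescaled once by median-of-ratios factors, between 0.899 and 0.942 in the water-treated and between 1.14 and 1.24 in the DSS-treated mice. Such rescaled levels are compared without a test.

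The libraries held epithelial RNA throughout, with 7 epithelial markers (*Epcam*, *Cdh1*, *Vil1* and others) that summed to between 4132 and 6865 TPM in every mouse. Marker sums of other cell types differed between treatments. All these sums are TPM as deposited, on the separate scales of the 2 tables, so part of a difference can be scale. The sum of 14 leukocyte markers lay between 1595 and 15043 TPM in the water-treated mice and between 30.1 and 510 TPM after DSS, where *Cd8a* was listed at 0 in all 7 mice. All 11 leukocyte markers counted were lower without overlap in both genotypes. The 7 markers of surface colonocytes summed to 1203 to 1979 TPM in water-treated mice and to 626 to 1289 TPM after DSS, with overlap. After the rescaling, *Car4*, *Slc26a3* and *Guca2a* were lower without overlap in both genotypes. *Aqp8*, *Ceacam20* and, slightly, *Krt20* were lower by mean. *Ms4a12* was higher by mean, with log2 differences (DSS minus water) of 0.435 in controls and 0.439 in knockout-labelled mice. Markers of cycling cells summed to 43.8 to 93.3 TPM in water and 126 to 191 TPM after DSS. After the rescaling, *Mki67* alone of the cycling list was higher without overlap in both genotypes. Markers of crypt base and stem cells summed to 386 to 1274 TPM and 163 to 637 TPM, and those of fibroblasts and muscle to 195 to 661 TPM and 96.6 to 422 TPM. Single genes of the crypt base list went both ways. Rescaled log2 differences, DSS minus water, were 0.48 in controls and 1.53 in knockout-labelled mice for *Lgr5*, and 0.83 and 1.10 for *Smoc2*. They were −1.17 and −2.97 for *Reg4*, −0.80 and −0.56 for *Ascl2*, and −0.26 and −0.22 for *Axin2*. Goblet cell markers summed to 2545 to 4780 TPM in the water-treated mice. After DSS they summed to 551 to 1451 TPM in 6 mice and to 4964 TPM in DSS-treated control 3. That mouse stood apart from its treatment and, as deposited, above the range in water. The mean level of *Tnfrsf1b* did not follow the labels, with 13.9 TPM in controls and 11.8 TPM in knockout-labelled mice given water, and 16.5 and 18.4 TPM after DSS, with log2 fold changes of −0.23 (exact two-sided permutation p = 0.198, n = 4 and 5) and 0.14 (p = 0.629, n = 3 and 4). TPM is summed over whole transcripts, so a deleted exon need not show in it, and mice are called by their labels. For mice of the knockout genotype, the study reports reduced TNFR2 on EpCAM+ cells by flow cytometry and a similar result by RT-qPCR. The part of these cell type differences in the claudin levels was not tested, and in bulk RNA fewer cells of a type and less RNA per cell cannot be told apart.

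Claudins cross the membrane several times and meet those of the next cell through their outer loops. Some seal the space between cells, and others line narrow channels through it. *Cldn2* encodes a channel for small cations and water, made in crypts and in leaky epithelia, and *Cldn15* a cation channel of the intestine. *Cldn3*, *Cldn4*, *Cldn7* and *Cldn8* are classed with the sealing claudins, the last as a claudin of the distal colon that limits sodium back-leak, and *Cldn1* is a barrier claudin of skin. *Cldn23* is known from the surface of the colon, and *Cldn12* has been linked to calcium passage. Occludin (*Ocln*) also crosses the membrane several times but belongs to the MARVEL family, and it is linked to the passage of larger molecules.

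The first outer loop carries the signature of the family, a tryptophan followed by a second tryptophan and by a pair of cysteines. The coding stretches of 6 claudins are shown for this loop, since the channel and the sealing claudins of this tissue differ in it. They run from the first signature tryptophan to the codon after the second cysteine, were read from the GENCODE M21 transcripts on GRCm38, and have the codons of both tryptophans and both cysteines in capitals.
Cldn2: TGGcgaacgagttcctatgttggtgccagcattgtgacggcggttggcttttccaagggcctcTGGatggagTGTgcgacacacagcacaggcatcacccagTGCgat
Cldn15: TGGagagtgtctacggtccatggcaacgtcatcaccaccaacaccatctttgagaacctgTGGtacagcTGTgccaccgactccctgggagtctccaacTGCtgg
Cldn3: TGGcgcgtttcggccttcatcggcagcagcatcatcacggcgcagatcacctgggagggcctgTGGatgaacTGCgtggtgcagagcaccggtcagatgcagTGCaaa
Cldn4: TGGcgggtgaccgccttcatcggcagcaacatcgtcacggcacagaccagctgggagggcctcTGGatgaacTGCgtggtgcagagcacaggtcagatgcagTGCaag
Cldn7: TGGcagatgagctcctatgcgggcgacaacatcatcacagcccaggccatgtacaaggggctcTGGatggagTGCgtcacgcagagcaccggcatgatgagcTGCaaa
Cldn8: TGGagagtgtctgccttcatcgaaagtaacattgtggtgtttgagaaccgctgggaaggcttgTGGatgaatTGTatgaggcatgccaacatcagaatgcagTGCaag
The last codon encodes aspartate, which is acidic, in *Cldn2* (codon 65) and lysine, which is basic, in *Cldn3*, *Cldn4*, *Cldn7* and *Cldn8*. In *Cldn15* it encodes an uncharged residue. Over the 108 bases, *Cldn3* and *Cldn4* were identical at 96 (88.9%), the most of any pair of equal length, and *Cldn2* shared 61 bases (56.5%) with *Cldn3*. *Cldn2* shared 72 (66.7%) with *Cldn7*, while the sealing claudins *Cldn7* and *Cldn8* shared 50 (46.3%). Base identity thus did not split *Cldn2* from the sealing claudins. Over whole transcripts, *Cldn3* and *Cldn4* shared 5 stretches of 31 bases, and no other pair of the 10 genes shared any, so reads were seldom divided between members.

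On GRCm38, *Cldn3* (chr5:134986214-134987472, plus strand) and *Cldn4* (chr5:134945119-134946934, minus) lie near each other, and each is a single exon, as are *Cldn8* (chr16:88560828-88563183, minus) and *Cldn23* (chr8:35824712-35826559, minus). *Cldn2* (chrX:139800828-139811386, plus) has 2 exons. *Cldn7* (chr11:69964779-69967885, plus), *Cldn15* (chr5:136966616-136975858, plus), *Cldn12* (chr5:5489537-5514958, minus) and *Ocln* (chr13:100496507-100552718, minus) have several listed transcripts. *Cldn1* spans chr16:26356642-26371841 on the minus strand. The end of *Cldn3* overlaps the antisense gene *Wbscr25*, and the libraries were stranded.

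*Cldn7* was the most abundant member in all 4 groups, and *Cldn3* and *Cldn4* came next. In the water-treated controls *Cldn7* had 446 ± 44.4 TPM (SD, n = 4 mice), *Cldn3* 314 ± 47.6 TPM and *Cldn4* 192 ± 83.9 TPM. *Cldn23* followed with 64.5 ± 8.61 TPM, *Cldn15* with 48.3 ± 9.98, *Cldn2* with 39.7 ± 3.49, *Ocln* with 35.7 ± 4.25 and *Cldn8* with 29.9 ± 9.20 TPM, and each of these 5 overlapped the next of them. *Cldn12* had 13.9 ± 1.55 TPM and *Cldn1* 1.46 ± 0.565 TPM, both clear of their neighbours. After DSS, *Cldn2* stood above *Cldn15* and *Cldn23* in both genotypes, at 101 ± 14.7 TPM in the controls (n = 3) and 105 ± 14.8 TPM in the knockout-labelled mice (n = 4) as deposited. *Cldn8* and *Cldn12* overlapped in both DSS-treated groups, which they did not in the water-treated ones. *Cldn1* was the lowest member in every group, and after DSS its mean fell short of the 1 TPM needed for the fit.

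**Figure D1:**
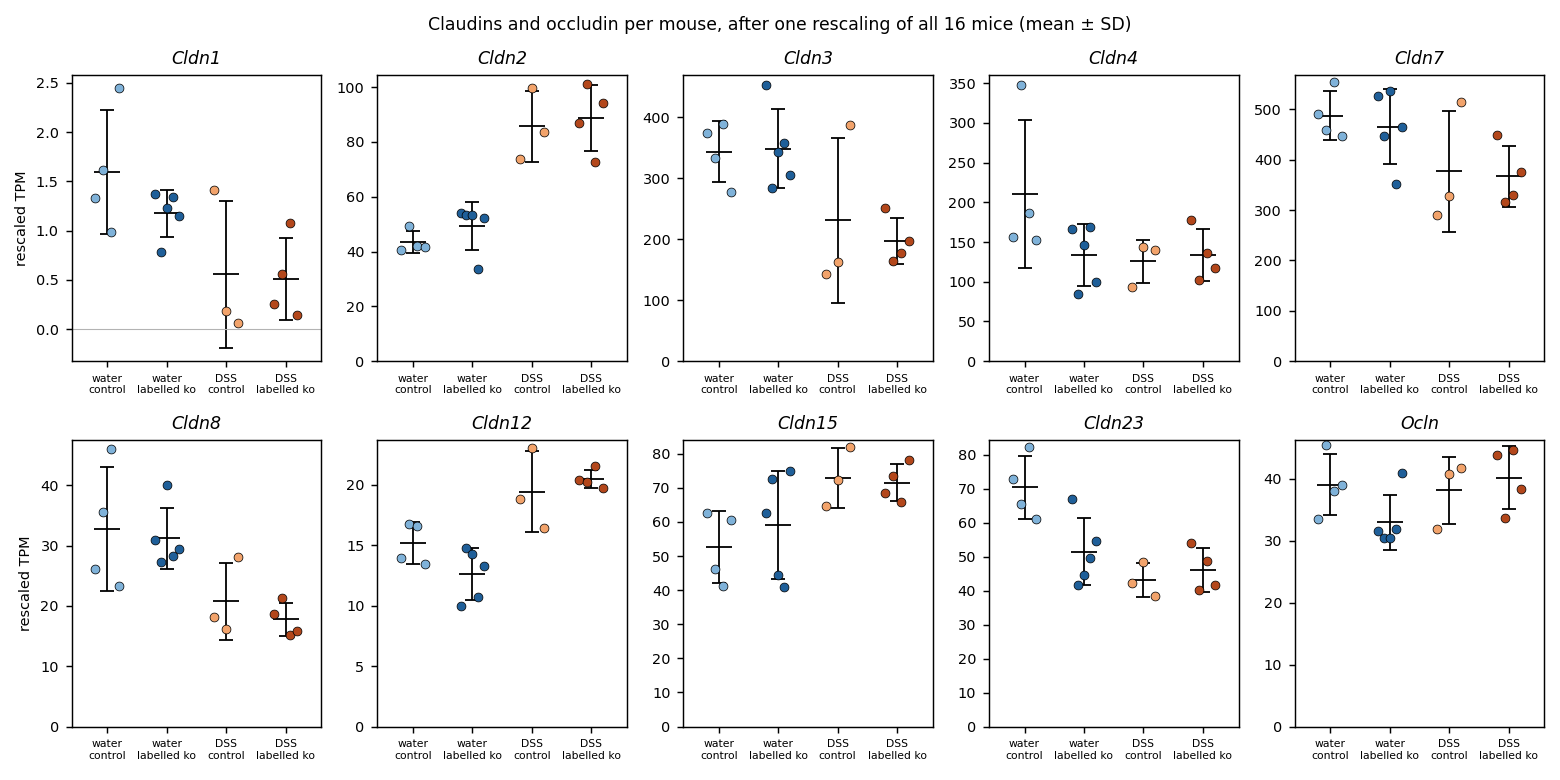
Rescaled TPM (vertical axis) of each member in each of the 16 mice, grouped on the horizontal axis by treatment and genotype, with the mean and SD of each group. For Cldn2, the DSS-treated mice sit between 72.8 and 101 with the water-treated ones at 33.8 to 54.0.

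The first question was whether the tight junction genes differed between water-treated and DSS-treated epithelium. The channel claudin *Cldn2* was higher in every DSS-treated mouse than in every water-treated one, with 1.98 times the rescaled mean in controls. *Cldn12* and *Cldn15* were also higher by mean in both genotypes, on every scale used. Of the 4 claudins classed here as sealing, *Cldn3* and *Cldn8* were lower by mean in both genotypes, *Cldn7* was lower after rescaling but near no difference as deposited, and *Cldn4* was lower in the controls alone. *Cldn23* was lower in the DSS-treated controls, and *Ocln* overlapped. Since no test was run across the separately scaled tables, genes were counted whose rescaled groups did not overlap.

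In the controls, 2 of 10 members (*Cldn2* and *Cldn15*) were higher in all DSS-treated mice, beside 10.2% of all 11245 genes counted, and 2 (*Cldn4* and *Cldn23*) were lower in all of them, beside 14.5%. In the knockout-labelled mice, 2 of 9 members (*Cldn2* and *Cldn12*) were higher, beside 17.3% of 11137 genes, and 2 (*Cldn3* and *Cldn8*) were lower, beside 18.3%. In both genotypes at once, 1 of 9 members (*Cldn2*) was higher, beside 6.13% of genes, and 0 were lower, beside 8.74%. Shares of so few members cannot be set apart from these background shares. The median log2 difference of the members was −0.52 in the controls and 0.03 in the knockout-labelled mice, and that of all genes 0.0060 and −0.0079.

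*Cldn2* had rescaled levels of 40.6, 49.3, 42.1 and 41.5 TPM in the water-treated controls and 54.0, 53.3, 53.3, 33.8 and 52.3 TPM in the water-treated knockout-labelled mice. After DSS its levels were 73.9, 99.6 and 83.7 TPM among controls, against 86.9, 101, 72.8 and 94.2 TPM in the knockout-labelled mice. The lowest DSS-treated mouse was above the highest water-treated mouse. The log2 difference was 0.96 in the controls, where the pooled SD was 0.18, and 0.84 in the knockout-labelled mice, where it was 0.25. With the TPM as deposited these differences were 1.32 and 1.20. The percentile rank of *Cldn2* among all genes of a mouse, which no scaling changes, lay between 91.8 and 94.8 in the water-treated mice and between 96.7 and 97.8 after DSS. Ranks of the genes counted rose at large, by a median of 1.09 points in the controls and 1.10 in the knockout-labelled mice. By rank, 18.8% and 25.5% of these genes were higher without overlap.

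The bases upstream of *Cldn2* are shown because it was the only member without overlap in both genotypes after the rescaling. As deposited and by percentile rank, *Cldn12* and *Cldn15* were also higher without overlap in both genotypes. The 250 bases before the RefSeq start (GRCm38.p6, chrX:139800558-139800807, plus strand) read as follows, with matches in capitals.
Cldn2 upstream: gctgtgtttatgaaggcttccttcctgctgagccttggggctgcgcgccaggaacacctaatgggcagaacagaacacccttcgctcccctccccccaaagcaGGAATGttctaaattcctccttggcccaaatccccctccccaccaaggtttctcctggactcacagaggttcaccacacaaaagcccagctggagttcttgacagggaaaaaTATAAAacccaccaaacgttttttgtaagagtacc
The match TATAAA lay at bases −35 to −30 from the start and was found, on either strand, in 12.3% of 32536 such windows. The match GGAATG, the core bound by TEAD factors, lay at −147 to −142 and was found in 12.6% of windows. Another 6 motifs had no match in this window: TGANTCA, bound by AP-1 factors, TTCNNNGAA, bound by STAT factors, TTTATNG, bound by CDX factors, GATAA, bound by GATA factors, CACCTG, bound by SNAI factors, and GTTAAT, bound by HNF1 factors. Of the 12 upstream windows of 8 members, the other 11 held no TATAAA. A match of letters is not a shown site.

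*Cldn15* followed a similar but weaker pattern. In the water-treated controls it had rescaled levels of 62.6, 46.2, 41.3 and 60.7 TPM, and after DSS the controls had 64.6, 72.2 and 82.0 TPM, a log2 difference of 0.48 (pooled SD 0.24). In the knockout-labelled mice it ranged from 40.8 to 75.0 TPM in water and from 65.7 to 78.1 TPM after DSS, and the groups overlapped, with a log2 difference of 0.31 (pooled SD 0.29). Its percentile rank did not overlap, at 93.0 to 96.1 in all water-treated and 96.4 to 97.2 in all DSS-treated mice. Ranks rose over the genes at large too, as given for *Cldn2*. Within a mouse, the ratio of *Cldn2* to *Cldn15* was 0.854 ± 0.218 and 0.865 ± 0.200 in the water-treated controls (n = 4) and knockout-labelled mice (n = 5). After DSS it was 1.18 ± 0.183 (n = 3) and 1.24 ± 0.112 (n = 4). The ranges, 0.649 to 1.20 in water and 1.02 to 1.38 after DSS, overlapped.

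*Cldn12* lay between 9.96 and 14.8 rescaled TPM in the water-treated knockout-labelled mice and between 19.7 and 21.6 TPM after DSS, a log2 difference of 0.67 (pooled SD 0.17). In the controls it had 13.9, 16.8, 16.6 and 13.4 TPM in water and 18.8, 23.1 and 16.5 TPM after DSS, and DSS-treated control 3 overlapped the water-treated mice. The log2 difference there was 0.33 (pooled SD 0.20). By percentile rank, all DSS-treated mice (86.0 to 89.8) were above all water-treated mice (78.7 to 85.4), beside the general rise in rank given for *Cldn2*.

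Of the sealing claudins, *Cldn8* had 30.9, 27.3, 40.0, 28.3 and 29.4 rescaled TPM in the water-treated knockout-labelled mice and 18.7, 21.3, 15.1 and 15.9 TPM after DSS, without overlap, a log2 difference of −0.78 (pooled SD 0.21). In the controls it had 26.2, 35.6, 45.9 and 23.3 TPM in water and 18.1, 16.1 and 28.1 TPM after DSS. Again it was DSS-treated control 3 that overlapped, and the log2 difference was −0.62 (pooled SD 0.42). *Cldn3* behaved in the same way, at 285 to 452 TPM in the water-treated knockout-labelled mice against 165 to 250.5 TPM after DSS (log2 difference −0.82). In the controls *Cldn3* had 277 to 389 TPM in water, and 143, 162 and 387 TPM after DSS. *Cldn7* overlapped in both genotypes, with log2 differences of −0.41 in the controls and −0.34 in the knockout-labelled mice. With the TPM as deposited, the *Cldn7* difference was −0.05 in the controls and turned to 0.03 in the knockout-labelled mice.

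*Cldn23* had 73.0, 65.5, 82.2 and 61.0 rescaled TPM in the water-treated controls and 42.4, 48.5 and 38.6 TPM after DSS, a log2 difference of −0.69 (pooled SD 0.17). In the knockout-labelled mice the groups overlapped, at 41.7 to 66.9 TPM in water and 40.1 to 53.9 TPM after DSS, and the log2 difference of −0.15 turned to 0.21 as deposited. *Cldn4* in the controls had 156, 348, 187 and 152 TPM in water and 94.0, 143 and 139 TPM after DSS. Its mean log2 difference was −0.68 there, −0.32 as deposited and −0.41 without water-treated control 2. In the knockout-labelled mice, where the groups overlapped, it was 0.03 and, as deposited, 0.39. Whether the genotypes differed in these responses was not tested. *Cldn1* lay between 0.985 and 2.45 TPM in the water-treated controls and had 1.42, 0.184 and 0.0621 TPM after DSS, and in the knockout-labelled mice its mean was too low to be counted. *Ocln* ranged from 30.4 to 45.5 rescaled TPM in water and from 31.9 to 44.7 TPM after DSS, with log2 differences of −0.03 in the controls, where the sign turned as deposited (0.32), and 0.28 in the knockout-labelled mice.

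**Figure D2:**
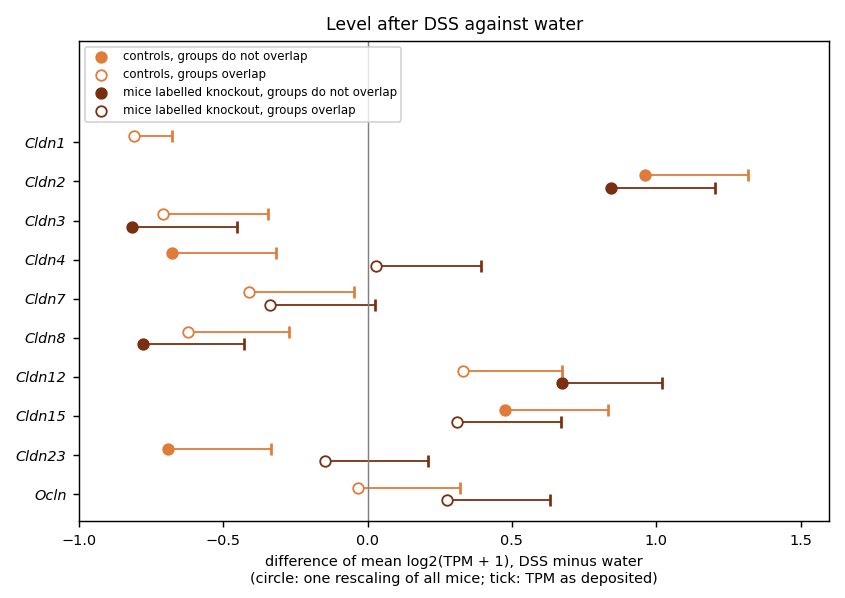
Difference of mean log2(TPM + 1), DSS minus water (horizontal axis), for each member (vertical axis) in controls (light) and knockout-labelled mice (dark). Circles use one rescaling of all mice, filled where the groups do not overlap, and ticks use TPM as deposited. Cldn2 is at 0.96 and 0.84 with filled circles in both genotypes.

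Scaling set how many members counted as higher or lower. As deposited, the median log2 difference over all genes came to 0.32 among controls and 0.31 among the knockout-labelled mice, and 30.9% and 31.5% of genes were higher without overlap against 8.25% and 10.1% lower. On that scale, 3 members were higher (*Cldn2*, *Cldn12* and *Cldn15*) and 1 lower (*Cldn23*) in the controls. In the knockout-labelled mice 4 were higher (*Cldn2*, *Cldn12*, *Cldn15* and *Ocln*) and 0 lower, so no claudin classed here as sealing counted as lower. Scaled to a list of epithelial genes, the median of all genes was 0.15 and 0.17. *Cldn2* and *Cldn15* in the controls, and *Cldn2* and *Cldn12* in the knockout-labelled mice, were again the members higher. *Cldn23* was lower in the controls, beside 11.8% of genes, and *Cldn3* and *Cldn8* in the knockout-labelled mice, beside 13.4%. When DSS-treated control 3 was left out, 5 of 10 members were lower in the controls (*Cldn3*, *Cldn4*, *Cldn7*, *Cldn8* and *Cldn23*), beside 26.7% of all genes, and 3 were higher (*Cldn2*, *Cldn12* and *Cldn15*), beside 24.4%. With 2 mice against 4, the share without overlap was larger over all genes too.

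Shares within the claudin family need no scaling between tables. The 9 claudin members made up between 98.3% and 99.6% of the summed TPM of all claudins in every mouse. *Cldn2* was 3.44% ± 0.339 of claudin TPM in the water-treated controls (n = 4) and 4.25% ± 0.743 in the water-treated knockout-labelled mice (n = 5), and 9.12% ± 2.42 (n = 3) and 9.48% ± 1.92 (n = 4) after DSS. The lowest share after DSS (6.41%, control 3) exceeded the highest in water (5.11%). The share of *Cldn3* was 24.4% to 33.9% in water and 18.1% to 29.7% after DSS. *Cldn7* held 38.6% ± 3.40 and 39.9% ± 4.26 in the water-treated groups and 38.2% ± 1.46 and 38.6% ± 1.22 after DSS. The summed claudin TPM as deposited was 1160 ± 121 and 1077 ± 152 in water, and 1169 ± 400 and 1127 ± 166 after DSS. Within each mouse, the ratio of *Cldn2* to *Cldn8* lay between 0.916 and 1.96 in water and between 2.98 and 6.18 after DSS.

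**Figure D3:**
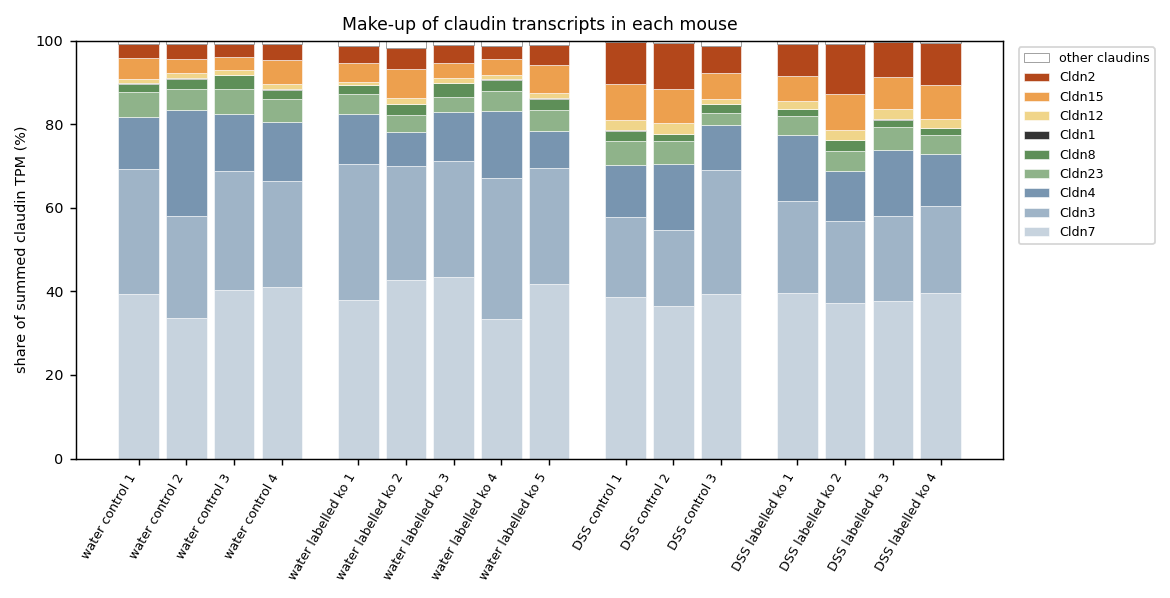
Share of the summed claudin TPM (vertical axis, percent) taken by each claudin in each of the 16 mice (horizontal axis). The Cldn2 segment spans 3.07% to 5.11% in the water-treated mice and 6.41% to 12.0% in the DSS-treated mice, and the Cldn7 segment stays between 33.3% and 43.5%.

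*Cldn7* and *Cldn15* each had a second listed transcript with a start upstream. By median, its estimated share of the gene's TPM was lower after DSS for *Cldn7* and higher for *Cldn15* in both genotypes. For neither gene were the groups free of overlap in both genotypes. How often transcripts of other genes separate in this way was not counted. Cldn7-204 (chr11:69964779-69967810) and the transcript with the downstream start (chr11:69965396-69967885) encode the same protein. In the water-treated controls, Cldn7-204 made up 13.1%, 24.7%, 16.4% and 33.7% of *Cldn7* TPM, and in the DSS-treated controls 2.21%, 0% and 10.3%, without overlap. In the knockout-labelled mice it made up 26.5%, 15.6%, 27.2%, 0.0367% and 11.7% in water and 4.87%, 0.842%, 0% and 4.06% after DSS, and water-treated mouse 4 overlapped. The transcripts share 742 stretches of 31 bases, 84.0% of those in Cldn7-204, so kallisto divides most reads between them by estimate and the split is uncertain. The other pair was less separable still. The *Cldn15* transcript with the upstream start (chr5:136966616-136975858) holds all 1820 stretches of the other one (chr5:136967869-136975844), and 97.2% of its own are shared. Its share was 15.8% to 39.9% in the water-treated controls, 33.3% to 100% in the DSS-treated controls, 21.5% to 62.7% in the water-treated and 65.2% to 99.8% in the DSS-treated knockout-labelled mice. Among the knockout-labelled mice the groups did not overlap, and among the controls DSS-treated control 3 overlapped.

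**Figure D4:**
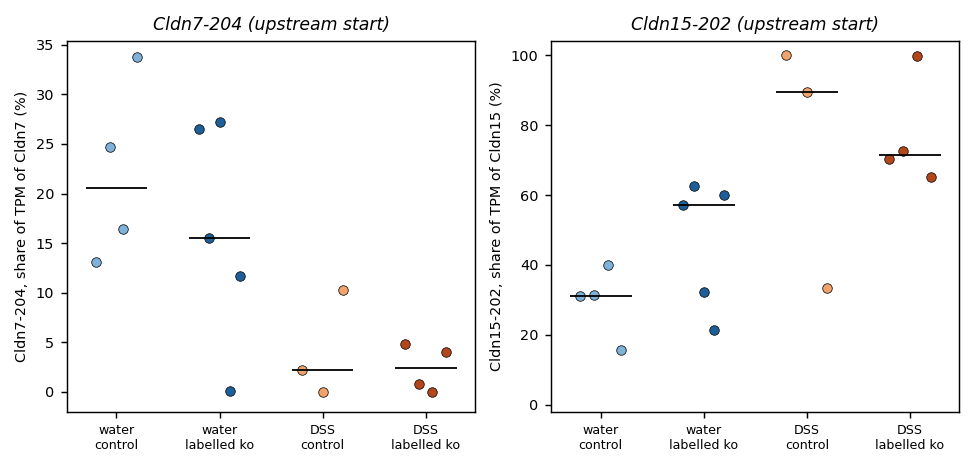
Share of the gene's TPM (vertical axis, percent) assigned to the listed transcript with the upstream start, for Cldn7 (left) and Cldn15 (right), per mouse with the group median as a line. The Cldn7-204 medians are 20.5% and 15.6% in the water-treated groups and 2.21% and 2.45% after DSS.

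The windows upstream of both *Cldn7* starts are shown because the transcripts, whose estimated shares differed by median between treatments, differ in their start. They are 250 bases each on the plus strand of GRCm38.p6, chr11:69964529-69964778 for Cldn7-204 and chr11:69965171-69965420 for the downstream RefSeq start, and have motif matches in capitals.
Cldn7 upstream start: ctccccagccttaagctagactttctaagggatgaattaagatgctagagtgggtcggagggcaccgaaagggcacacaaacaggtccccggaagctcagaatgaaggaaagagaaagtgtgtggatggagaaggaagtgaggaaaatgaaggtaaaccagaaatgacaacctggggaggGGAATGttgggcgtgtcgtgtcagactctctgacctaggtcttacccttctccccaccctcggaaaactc
Cldn7 downstream start: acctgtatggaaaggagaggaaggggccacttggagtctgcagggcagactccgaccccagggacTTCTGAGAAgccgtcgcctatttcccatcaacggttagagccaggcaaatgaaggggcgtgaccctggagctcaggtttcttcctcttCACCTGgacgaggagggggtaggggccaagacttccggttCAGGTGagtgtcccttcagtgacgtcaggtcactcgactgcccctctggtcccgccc
The upstream window has a GC content of 51.2% and holds GGAATG at −70 to −65. The downstream window has a GC content of 60%. It holds TTCNNNGAA, a motif of STAT factors, at −185 to −177, in 7.04% of windows, and CACCTG, the E-box bound by SNAI factors, at −97 to −92 and, on the other strand, at −57 to −52, in 17.3% of windows. The other 6 motifs had no match there.

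The second question was whether loss of epithelial TNFR2 changed the tight junction genes, which was tested within each treatment. After DSS no member was called, and every mean was within 0.18 of no change on the log2 scale. In the water-treated mice no member was called either. There 7 of 10 means were lower in the knockout-labelled mice, *Cldn4* and *Cldn23* by the most, and 3 were higher, beside 5542 of all 11046 genes higher. limma was run on log2(TPM + 1) of the genes whose mean reached 1 TPM, with the Benjamini-Hochberg adjusted p called under 0.05.

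After DSS, 0 of 9 members tested were called, beside 0.00918% of 10899 genes (1 gene), and 0 had an unadjusted p under 0.05, beside 2.65% of genes (289). *Cldn2* had 84.8, 114 and 104 TPM among controls, against 104, 120, 85.4 and 111 TPM in the knockout-labelled mice, and the groups overlapped throughout. Its log2 fold change was 0.06 (SE 0.16, 95% interval −0.30 to 0.43, limma adjusted p = 1.00), and the exact two-sided permutation test over mice gave p = 0.686 (n = 3 and 4). *Cldn12* had 21.6, 26.3 and 20.4 TPM and 24.5, 24.1, 25.3 and 23.3 TPM, a log2 fold change of 0.10 (95% interval −0.19 to 0.38). *Cldn3* had the widest interval, −0.93 to 0.77 around −0.08, with 165, 185 and 481 TPM among controls, against 301, 196, 208 and 233 TPM in the knockout-labelled mice. Without control 3 its log2 fold change was 0.40. The intervals of all 9 members tested lay within 1 log2 unit of no change. Those of *Cldn4* (−0.45 to 0.65), *Cldn7* (−0.56 to 0.57) and *Cldn8* (−0.73 to 0.37) were also wide. Narrower ones were those of *Cldn15* (−0.33 to 0.31), *Cldn23* (−0.22 to 0.43) and *Ocln* (−0.29 to 0.46). *Cldn1*, under the filter, had 1.63, 0.210 and 0.0771 TPM and 0.309, 0.660, 1.26 and 0.162 TPM. With 3 and 4 mice the smallest exact p is 0.0286.

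In the water-treated mice, 0 of 10 members were called, beside 0.00905% of 11046 genes (1 gene), and 1 (*Cldn23*) had an unadjusted p under 0.05, beside 5.28% of genes (583). *Cldn23* had 67.9, 59.7, 74.8 and 55.4 TPM in the controls (64.5 ± 8.61, n = 4) and 62.6, 38.2, 42.0, 44.7 and 49.9 TPM in the knockout-labelled mice (47.5 ± 9.48, n = 5). Only knockout-labelled mouse 1 reached the range of the controls. The log2 fold change was −0.44 (SE 0.15, 95% interval −0.79 to −0.10), the limma adjusted p was 0.865, and the exact two-sided permutation test gave p = 0.0397 (n = 4 and 5). Within cage a the log2 difference was −0.53 (2 against 2 mice) and within cage b −0.33 (2 controls and 3 labelled knockout). After DSS the fold change of *Cldn23* was 0.10, and the difference between the treatments was not tested.

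*Cldn4* had 145, 316, 170 and 138 TPM in the water-treated controls and 155, 77.0, 137, 152 and 91.7 TPM in the knockout-labelled mice, and the groups overlapped. Its log2 fold change was −0.61 (SE 0.30, 95% interval −1.29 to 0.06, adjusted p = 0.865 by limma), and −0.35 without control 2, the highest mouse. The exact test gave p = 0.103 (n = 4 and 5). *Ocln* had 31.2, 41.4, 34.6 and 35.5 TPM among controls, against 29.5, 27.8, 28.7, 28.6 and 37.4 TPM in the knockout-labelled mice, a log2 fold change of −0.22 (95% interval −0.49 to 0.04). *Cldn2* leaned the other way, with 37.8, 44.9, 38.3 and 37.7 TPM and 50.5, 48.8, 50.2, 30.4 and 47.9 TPM, a log2 fold change of 0.18 (95% interval −0.18 to 0.53). Knockout-labelled mouse 4 was below every control, and the other 4 were above every control. The 95% intervals of *Cldn3*, *Cldn7*, *Cldn8*, *Cldn12*, *Cldn15* and *Cldn1* also included 0, with fold changes between −0.25 and 0.15. The smallest exact p for 4 and 5 mice is 0.00794.

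**Figure D5:**
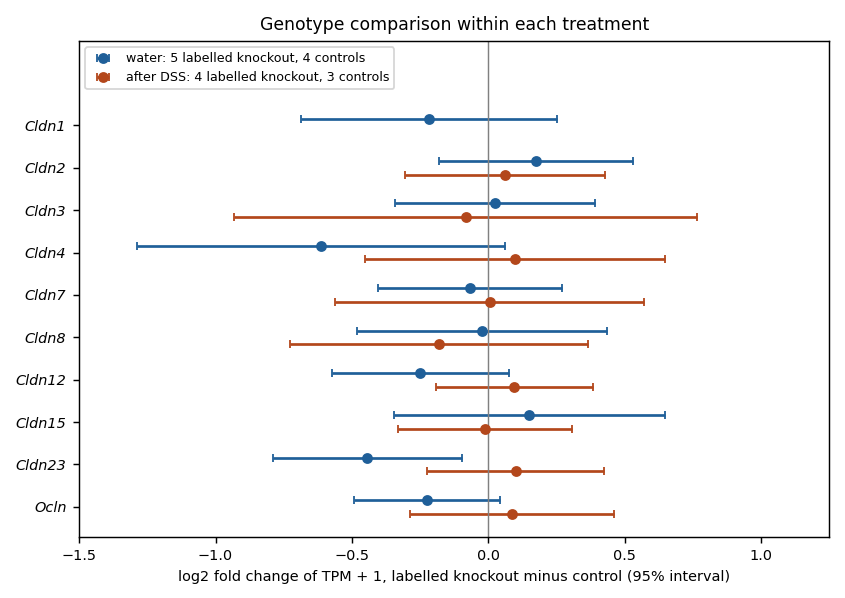
Log2 fold change of TPM + 1, knockout-labelled mice minus controls (horizontal axis), with its 95% interval from limma, for each member (vertical axis) in water-treated (blue) and DSS-treated (brown) mice. All intervals cross 0 except that of Cldn23 in water (−0.79 to −0.10), and Cldn1 is not tested after DSS.

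Cage was examined because it splits the mice of each treatment. In the water-treated mice, where cage and sex are the same split, 0 of 10 members differed between cage a and cage b by limma with genotype as a term, beside 0.0362% of genes (4 called), and 0 had an unadjusted p under 0.05 (754 genes did). *Ocln* had the smallest adjusted p (0.812) with a log2 fold change of 0.17 in the females. In the DSS-treated mice, control 3 and knockout-labelled mouse 1 shared cage c. Both were above all 5 mice of cage d for 3 of 9 members, *Cldn3* (301 and 481 TPM against 165 to 233), *Cldn4* (173 and 214 TPM against 108 to 164) and *Cldn7* (540 and 638 TPM against 332 to 443), beside 15.6% of genes. For 0 members were both below, beside 9.94%. *Cldn2* lay within the range of cage d, at 104 TPM in both. These are levels as deposited. After the rescaling *Cldn4* overlapped, at 139 and 178 TPM in cage c against up to 143 TPM in cage d. *Cldn3* and *Cldn7* still did not overlap. With 2 mice in cage c, the difference between these cages was not tested. Within cage d alone (2 controls and 3 labelled knockout) the genotype differences were between −0.02 and 0.28 on the log2 scale for the 9 members above 1 TPM. Between the 2 mice of cage c, 1 of each genotype, they ran from −0.67 (*Cldn3*) and −0.61 (*Cldn8*) to 0.43 (*Cldn23*).

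Other genes of the junction were followed on a list of scaffold, polarity, regulator, adherens junction and further membrane proteins, of which 38 were listed and 33 reached a mean of 1 TPM. By genotype, 0 of 33 were called in either treatment, beside 0.00918% of all genes after DSS and 0.00905% in water. An unadjusted p under 0.05 was reached by 0 after DSS, beside 2.65% of genes, and by 3 in the water-treated mice, beside 5.28%. So few genes cannot be set apart from these shares. All 3 were lower in the knockout-labelled mice. These were *Pard6b*, a polarity protein (log2 fold change −0.54, SE 0.18, limma adjusted p = 0.865), *Ybx3*, which binds the ZO scaffold protein encoded by *Tjp1* (−0.46, SE 0.15), and *Arhgef18*, a regulator of the junction (−0.40, SE 0.15). Between treatments, 2 of 33 were higher and 2 lower without overlap in the controls, beside 10.2% and 14.5% of all genes. In the knockout-labelled mice 9 were higher and 4 lower, beside 17.3% and 18.3%. In both genotypes at once, 0 were higher and 0 lower, beside 6.13% and 8.74%. The scaffold genes *Tjp1* and *Tjp3*, named here after their values were seen, had rescaled log2 differences of 0.37 and 0.62 (*Tjp1*) and −0.19 and −0.59 (*Tjp3*) in controls and knockout-labelled mice.

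Of the 16 other claudins listed, 2 reached a mean of 1 TPM. *Cldn14*, a sealing claudin known from the inner ear and kidney, lay between 6.61 and 17.1 TPM in the water-treated mice and between 2.56 and 16.7 TPM after DSS, with the highest value of that treatment in control 3. In water it was 7.66 ± 1.33 TPM in controls (n = 4) and 12.1 ± 3.71 TPM in knockout-labelled mice (n = 5), a log2 fold change of 0.56 (SE 0.21, limma adjusted p = 0.865). *Cldn5*, the endothelial claudin, lay between 0 and 2.70 TPM. *Cldn18*, a stomach claudin, and *Cldn16* and *Cldn19*, kidney claudins, were listed at 0 in all 16 mice.

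The gene whose levels moved most like those of each member was sought among 6220 genes with at least 5 TPM by mean in both tables, as the largest of the smaller Pearson r over 9 water-treated and 7 DSS-treated mice, after the mean of each group had been taken off log2(TPM + 1). For *Cldn7* it was *Pak4*, a kinase (r = 0.96 in water and 0.98 after DSS), and for *Cldn3* it was *Id1*, an inhibitor of bHLH factors (0.92 and 0.96). *D8Ertd738e* was closest to *Cldn8* (0.91 and 0.95), *Irf2bp1* to *Cldn15* (0.90 and 0.90), *Helz2* to *Ocln* (0.89 and 0.93) and *Nrbf2* to *Cldn23* (0.88 and 0.96). *Klf10*, a transcription factor, was closest to *Cldn4* (0.89 and 0.86), *Srsf6*, a splicing factor, to *Cldn12* (0.87 and 0.91) and *Mettl23* to *Cldn2* (0.84 and 0.87). These are the best of many candidates over few mice that share libraries and scaling, and are given as a description.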

How the data were processed

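RNA of EpCAM+ colon cells from 16 mice was analysed, grouped by the sample labels. The authors quantified stranded, single-end libraries with kallisto (mm10 by the submitters' processing notes) and used sleuth. They deposited 2 tables, one per treatment, of TPM for 28988 principal transcripts, with 385 repeated lines in each, which were dropped here. The deposited columns of the authors' own tests (p, q, ratios) were not used.

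TPM was summed per gene symbol. Within a treatment, limma 3.58.1 (R 4.3.3) compared the genotypes, taking log2(TPM + 1), a mean-variance trend and the genes whose mean reached 1 TPM. Fold changes on that scale understate those of low genes. An exact two-sided permutation over mice was run for single members. No test was run between the tables, nor an interaction. Nothing in the labels pairs the mice, and p-values measure the spread between mice. TPM keeps no depth, so none is given. The test was checked on simulated data. Members and lists were chosen with earlier results of these data known. Named were all members, list genes past a threshold and the single most alike gene of each member. For the treatments, up to 5 genes of the junction list in each direction without overlap in both genotypes were to be named, and there were none. One gene of that list is not reported here. Alternatives were another pseudocount (0.1), filter (none, 5 TPM) or scaling, quantile normalization, all groups in one fit, cage or replicate number as a term, ranks, and leaving out each mouse.

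Sequences are from GENCODE M21 (GRCm38) and RefSeq (GRCm38.p6). Upstream windows were found for 8 of 10 members. Scripts ran in Python 3.11.15 with pandas 2.3.3 and numpy 2.4.6, and plots in matplotlib 3.10.9.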

Additional observations from a re-analysis of the deposited data

Results flagged for a closer look

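Within groups of 4 or 5 mice, 30 sets of member values were screened for a mouse far from the others by Dixon's criterion, which chance meets in about 1 of 20 groups, and 3 met it. *Cldn2* was 44.9 TPM in water-treated control 2, against 37.7 to 38.3 TPM in the other controls. *Cldn2* was 30.4 TPM in knockout-labelled water-treated mouse 4, against 47.9 to 50.5 TPM in the other 4. Without that mouse the *Cldn2* log2 fold change by genotype was 0.31 (SE 0.09, limma adjusted p = 0.708), against 0.18 with it. The same mouse had 0.116 TPM of Cldn7-204, whose part was not tested. *Ocln* was 37.4 TPM in knockout-labelled water-treated mouse 5, against 27.8 to 29.5 TPM in the other 4.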

How the results depend on the processing

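With TPM as deposited, 3 members were higher and 1 lower in the controls after DSS, beside 30.9% and 8.25% of all genes. In the knockout-labelled mice 4 were higher and 0 lower, beside 31.5% and 10.1%. By percentile rank, 1 was lower in the controls and 1 in the knockout-labelled mice, beside 10.9% and 13.7% of genes. On that scale 3 were higher in each genotype, beside 18.8% and 25.5%. With the epithelial scaling 1 was lower in the controls and 2 in the knockout-labelled mice, beside 11.8% and 13.4%. Leaving out each mouse gave 2 to 5 lower in the controls (5 without DSS-treated control 3), beside 15.8% to 26.7% of all genes, and 2 to 3 higher in the knockout-labelled mice (3 without water-treated mouse 5), beside 18.0% to 19.9%. No member was called by genotype or cage in any alternative fit. The replicate number as a block gave 0 called members in both treatments. Same-numbered mice did not deviate together, with correlations between −0.197 and −0.0253 after DSS and between −0.0769 and 0.0932 in water, so the numbers do not pair the mice.

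Small fold changes turned sign. For *Cldn7* after DSS (0.0048) it was −0.0068 with median-of-ratios scaling, −0.0067 with all 4 groups in one fit and −0.0075 with the replicate block. For *Cldn3* in water (0.025) it was −0.21 after quantile normalization, and for *Cldn12* between cages (0.0097) −0.015 without a genotype term. Leaving out each mouse after DSS gave −0.056 to 0.16 for *Cldn2*, −0.37 to 0.40 for *Cldn3*, −0.12 to 0.22 for *Cldn4*, −0.18 to 0.29 for *Cldn7*, −0.36 to 0.088 for *Cldn8*, −0.11 to 0.11 for *Cldn15* and −0.053 to 0.19 for *Ocln*. In water it gave −0.078 to 0.10 for *Cldn3*, −0.13 to 0.037 for *Cldn7* and −0.17 to 0.15 for *Cldn8*. Between cages it gave −0.16 to 0.045 for *Cldn2*, −0.16 to 0.12 for *Cldn8* and −0.10 to 0.11 for *Cldn12*. The cause was not tested. TPM gives no depth, so what sequencing depth limits cannot be read from these values.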
